A study of Mus musculus with 19 samples.

Results

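Clonal expansion of mutated blood stem cells and acute leukemia repeatedly involve the enzymes that write, erase and read marks on DNA and histones. Here 10 such regulators were followed, out of 54352 genes listed in the deposited counts: the DNA methyltransferases *Dnmt1*, *Dnmt3a* and *Dnmt3b*, the methylcytosine dioxygenases *Tet1*, *Tet2* and *Tet3*, the Polycomb genes *Ezh2* and *Bmi1*, the histone methyltransferase gene *Kmt2a* and *Asxl1*. They were chosen by name for their role in blood disease, with earlier results of these data known, and all 10 had counts in every one of the 19 libraries. The libraries came from 2 sorted mouse bone marrow populations, LSK cells (Lin- Sca1+ cKit+, a fraction that holds the stem cells and the earliest progenitors, called KLS in the labels) and CMPs (common myeloid progenitors). Each population was sorted from sub-lethally irradiated C57BL/6-CD45.1; cKit-w41 recipients, which keep some host cells of their own, that had been given HSCs from female C57BL/6J donors of 9 to 12 weeks. The transplanted HSCs carried a doxycycline-inducible lentiviral shRNA with a zsGreen reporter, and zsGreen+ cells were sorted after 10 weeks of reconstitution and 6 days of doxycycline food. Every group, controls included, therefore shared the transplant, the vector and the doxycycline. The shRNAs were sh10 and sh20 against the lncRNA *Spehd* and a control against *Renilla* luciferase, a gene that mice lack. In LSK cells there were 4 *Renilla* (A to D), 3 sh10 (A to C) and 3 sh20 (A to C) libraries, and in CMPs 4 *Renilla* (A to D), 3 sh10 (A to C) and 2 sh20 (B and C) libraries. The study searched for lncRNAs that blood formation requires, and these libraries were made to follow the early consequences of *Spehd* knockdown. *Spehd* is not among the counted genes under that name, so its own depletion was not measured here.

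DNA methylation is copied onto the new strand after replication by DNMT1 and laid down on unmethylated sites by DNMT3A and DNMT3B, while the TET enzymes oxidise methylcytosine and so open a way to its removal. EZH2 is the catalytic subunit of Polycomb repressive complex 2 (PRC2), which methylates histone H3 on lysine 27, and BMI1 is a subunit of Polycomb repressive complex 1 (PRC1), which ubiquitinates histone H2A and is needed for the self-renewal of HSCs. KMT2A (MLL1) methylates histone H3 on lysine 4 and is known for its fusions in leukemia, and ASXL1 is a partner of the deubiquitinase BAP1, which removes the PRC1 mark. Mutations of DNMT3A, TET2 and ASXL1 are the commonest in human clonal hematopoiesis, and in mice loss of *Dnmt3a* or *Tet2* lets HSCs expand.

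The libraries held 3647318 to 5965155 counts on genes (median 4918631) and 17174 to 20678 detected genes. Library size moved with the shRNA in CMPs, where the 5 *Spehd* shRNA libraries (4918631 to 5965155 counts) all lay above the 4 *Renilla* libraries (3857980 to 4314959). One LSK sh10 library, B, stood apart, with a mean correlation of 0.827 with the other libraries of its group, as did the CMP sh20 libraries B and C, which correlated at 0.831 with each other. The remaining libraries correlated at 0.894 to 0.979 with their group. The labels fitted *Ly6a*, *Hlf* and *Gata1*, but not the other myeloid genes read. *Ly6a*, which encodes Sca1, averaged 50.9 CPM (counts relative to the TMM-scaled library size) in LSK and 5.18 CPM in CMP *Renilla* libraries. *Hlf* averaged 266.8 and 53.6 CPM, and *Gata1* 70.7 and 296.5 CPM. *Mpo* (524.4 and 355.4 CPM) and *Elane* (147.3 and 35.4 CPM), both of granulocyte precursors, were on average higher in LSK. So were *Cebpa* (38.9 and 13.7 CPM) and *Cd34* (500.2 and 341.9 CPM). The summed level of 10 myeloid progenitor genes overlapped, at 1490 to 1800 CPM in LSK and 1630 to 1950 CPM in CMP *Renilla* libraries.

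The shRNA guides are given here because the knockdown comparisons rest on them, and the promoters of the members that turned out lower in CMPs as a description of these genes. The guide strands are printed 5′ to 3′ with the seed (bases 2 to 8) in capitals.
sh10: tACAAAGTcagcttttcctctc
sh20: tATGCTATgacaacccagggca
None of 141767 annotated mouse transcripts held the full complement of either guide. A match to the seed of sh10 lay in transcripts of 6 of the 10 genes (*Dnmt1*, *Dnmt3a*, *Tet1*, *Tet3*, *Kmt2a* and *Bmi1*) and of 27.8% of 21877 coding genes, and a match to the seed of sh20 in *Dnmt1* alone and in 12.8% of coding genes. Several of these transcripts are long, with 5 of the 10 genes over 15 kb of exons against 2.25% of the genes tested, and whether any seed match acts was not tested. The 3 promoter windows cover the 250 bases upstream of an annotated start, from RefSeq on GRCm38.p6, printed 5′ to 3′ on the gene's strand with each CpG in capitals.
Dnmt3b, chr2:153649199-153649448, plus strand: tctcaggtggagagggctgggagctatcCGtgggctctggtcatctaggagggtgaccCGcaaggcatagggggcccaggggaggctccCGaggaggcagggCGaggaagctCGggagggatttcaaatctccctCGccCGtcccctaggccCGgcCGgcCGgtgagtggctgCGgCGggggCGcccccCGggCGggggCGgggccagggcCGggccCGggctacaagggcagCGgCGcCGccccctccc
Dnmt3a, chr12:3806730-3806979, plus strand: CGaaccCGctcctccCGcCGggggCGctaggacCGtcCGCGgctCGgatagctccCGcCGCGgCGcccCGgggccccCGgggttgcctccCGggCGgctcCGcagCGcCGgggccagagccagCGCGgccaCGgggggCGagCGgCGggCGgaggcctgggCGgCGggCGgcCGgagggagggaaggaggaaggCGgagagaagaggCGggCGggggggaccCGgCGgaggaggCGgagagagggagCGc
Kmt2a, chr9:44881290-44881539, minus strand: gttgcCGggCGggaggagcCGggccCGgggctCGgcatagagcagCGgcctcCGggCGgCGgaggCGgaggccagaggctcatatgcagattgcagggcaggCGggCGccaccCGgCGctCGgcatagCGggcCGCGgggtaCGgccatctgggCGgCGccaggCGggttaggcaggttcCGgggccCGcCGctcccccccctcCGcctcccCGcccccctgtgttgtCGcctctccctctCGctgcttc
These windows held 21, 38 and 29 CpGs for *Dnmt3b*, *Dnmt3a* and *Kmt2a*, against a median of 6 over 32851 promoter windows of the same length. *Dnmt3a* has 3 annotated starts, of which the first is shown, and the windows of the others held 40 and 15 CpGs. The *Tet2* window was richer still, with 51 CpGs, more than 99.9% of windows. The letters GGGCGG, read on both strands, occurred 3 times for *Dnmt3b*, 5 times for *Dnmt3a* and 4 times for *Kmt2a*, and 32.7% of all windows held them at least once. These are descriptions of the sequence, since no binding or methylation was measured.

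Per length of exon, *Dnmt1* was by far the most abundant of the 10 transcripts in control cells. In LSK *Renilla* libraries its level was 86.8 ± 3.64 CPM per exonic kilobase (SD, n = 4), above 97.8% of the genes tested, and in CMP *Renilla* libraries 77.8 ± 4.53. *Dnmt3b* (26.8 ± 4.65 CPM per kb) and *Ezh2* (25.9 ± 1.8) followed in LSK cells with overlapping libraries, then *Bmi1* (20.3 ± 3.21) and *Asxl1* (18.9 ± 0.61), which also overlapped. *Dnmt3a* was lower, at 9.88 ± 1.09 CPM per kb, and *Kmt2a* stood at 6.62 ± 1.53. The TET genes came last, with *Tet3* at 4.13 ± 1.40, *Tet2* at 2.95 ± 0.873 and *Tet1* at 2.77 ± 0.805 CPM per kb, and the ranges of *Tet2* and *Tet1* overlapped. In CMPs *Dnmt3b* dropped from the second to the fourth place, at 17.0 ± 2.96 CPM per kb, behind *Ezh2* (27.4 ± 1.70) and *Bmi1* (21.0 ± 1.27), and the other members kept their order.

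**Figure D1:**
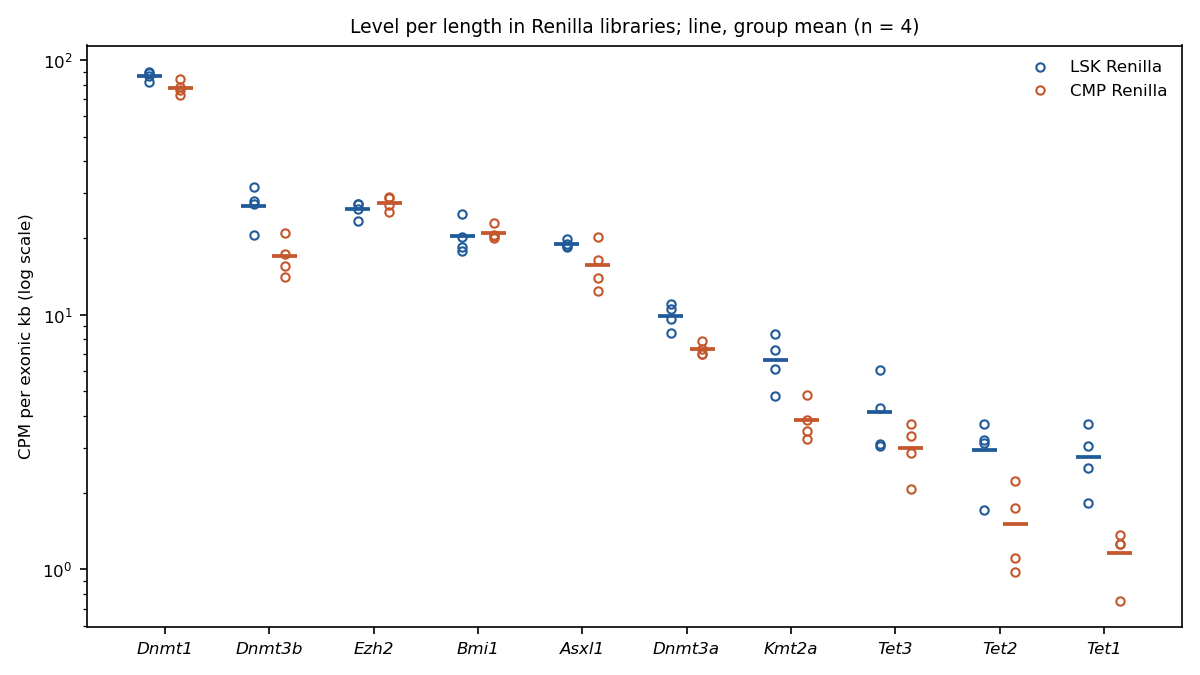
Level of each gene per exonic kilobase (CPM per kb, log scale) in the 4 LSK and 4 CMP *Renilla* libraries, with points for libraries and lines for group means. *Dnmt1* lies on top in both cell types, the TET genes at the bottom, and *Tet1*, *Tet2*, *Kmt2a* and *Dnmt3b* show the widest steps down from LSK to CMP.

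The first comparison asked which of the 10 genes differ between LSK cells and CMPs that carry the control shRNA. It was made with edgeR's quasi-likelihood test in a fit of all 19 libraries, with Benjamini-Hochberg adjustment over 15066 genes. *Dnmt3a*, *Dnmt3b* and *Kmt2a* were lower in CMPs, none of the 10 was higher, and the other 7 did not pass the test. That is 3 of 10 members against 19.8% of all genes tested (1663 higher and 1316 lower in CMPs). That balance turned with upper quartile scaling, where 1212 of 2624 genes called were higher, and with no filter, where 1166 of 2967 were. The median log2 fold change was -0.45 over the 10 genes and -0.02 over all genes.

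*Dnmt3b*, a de novo methyltransferase, fell by 0.66 on the log2 scale from LSK to CMP (SE 0.15, adjusted p = 0.0050). Its levels were 138.8, 161.5, 104.5 and 142.5 CPM in LSK *Renilla* libraries A to D and 71.9, 107.0, 79.4 and 88.1 CPM in the CMP libraries. Only CMP library B reached into the LSK range, just above LSK library C. *Dnmt3a*, its relative and the gene mutated most often in clonal hematopoiesis, fell by 0.44 (SE 0.12, adjusted p = 0.0167). It stood at 182.4, 141.2, 174.8 and 159.6 CPM in LSK and 122.2, 116.5, 116.2 and 131.6 CPM in CMP libraries, and the groups did not overlap. Here and below, a lack of overlap only describes small groups of libraries. The share of all genes whose groups did not overlap is not given. *Dnmt3a* no longer passed without CMP *Renilla* B or C or LSK *Renilla* A, or with an offset per library that follows counts per exonic base (a density offset) (adjusted p = 0.0520 to 0.0585). The maintenance enzyme *Dnmt1* did not pass, with 603.5 to 662.0 CPM in LSK and 539.7 to 619.0 CPM in CMP and a log2 fold change of -0.16 (95% interval -0.32 to 0.01, adjusted p = 0.166), but it passed as lower in CMPs with that density offset (-0.32, adjusted p = 0.0309).

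*Kmt2a* fell by 0.78 (SE 0.23, adjusted p = 0.0228). It had 101.6, 79.7, 139.4 and 120.7 CPM in LSK and 57.9, 80.4, 64.0 and 54.2 CPM in CMP *Renilla* libraries. LSK library B and CMP library B met at 80 CPM, and the others were separate. The call was lost without CMP *Renilla* A, C or D, without LSK *Renilla* C or D and with the density offset (adjusted p = 0.0514 to 0.0797), and without CMP *Renilla* C *Dnmt3b* was the 1 member that passed. *Asxl1*, the BAP1 partner, gave a log2 fold change of -0.26 (95% interval -0.65 to 0.12, adjusted p = 0.342), from 136.7 to 147.0 CPM in LSK and from 91.9 to 150.8 CPM in CMP.

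The TET genes had the lowest fold changes among those that did not pass. *Tet1* counted 28.1, 47.0, 38.7 and 57.4 CPM in LSK and 21.1, 19.5, 11.6 and 19.4 CPM in CMP *Renilla* libraries. These groups did not overlap, yet the log2 fold change of -1.26 had an SE of 0.48 and an adjusted p of 0.0767. *Tet2* had 54.5, 28.7, 63.0 and 52.9 CPM in LSK against 18.7, 29.2, 37.4 and 16.4 CPM in CMP, a log2 fold change of -0.96 (SE 0.40, adjusted p = 0.102), with LSK library B inside the CMP range. *Tet3* ranged from 50.9 to 100.8 CPM in LSK and from 34.5 to 62.1 CPM in CMP (log2 fold change -0.46, 95% interval -1.08 to 0.15, adjusted p = 0.294).

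The Polycomb members had the log2 fold changes nearest to 0. *Ezh2* had a log2 fold change of 0.08 (95% interval -0.28 to 0.44, adjusted p = 0.803), with 155.9 to 181.8 CPM in LSK and 168.4 to 192.7 CPM in CMP. *Bmi1* had a log2 fold change of 0.04 (95% interval -0.75 to 0.84, adjusted p = 0.956), with 70.4 to 98.8 CPM in LSK and 79.8 to 90.8 CPM in CMP. The SE of *Bmi1* was 0.38 in the fit of all libraries and 0.17 without LSK sh10 library B. The RNA is bulk, so a different mix of cells and a different level per cell cannot be told apart. Markers of other cells moved with the cell type. In LSK and CMP *Renilla* libraries the summed level of 7 red cell genes was 7.15 to 15.3 and 124 to 146 CPM, that of 8 T and NK cell genes 53.8 to 88.2 and 175 to 293 CPM, and that of 6 stroma and endothelium genes 140 to 151 and 78.3 to 119 CPM, with none of these genes at 0. With sh10 the red cell sum was 12.2 to 44.9 and 72.9 to 131 CPM, while the T and NK cell sum went the other way (55.3 to 85.0 and 20.5 to 40.5 CPM) and the B cell sum was 63.9 to 103 and 24.1 to 38.3 CPM (*Pax5* at 0 in both). The macrophage and dendritic sum (129 to 296 and 53.3 to 71.5 CPM) and that of stroma and endothelium (116 to 150 and 79.6 to 114 CPM, *Cdh5* at 0 in both) were also higher in LSK with sh10, as was the mature neutrophil sum (at least 47.0 and at most 11.0 CPM, *Ly6g* at 0 in the latter). With sh20 the red cell sum was 9.10 to 112 and 207 to 229 CPM, the T and NK cell sum 79.3 to 105 and 157 to 225 CPM, the mature neutrophil sum 4.73 to 6.63 and 20.4 to 31.2 CPM (*Ly6g* at 0 in both) and the stroma and endothelium sum 107 to 160 and 80.1 to 93.4 CPM (*Cdh5* at 0 in both and *Lepr* in LSK). Their part in the results was not tested.

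**Figure D2:**
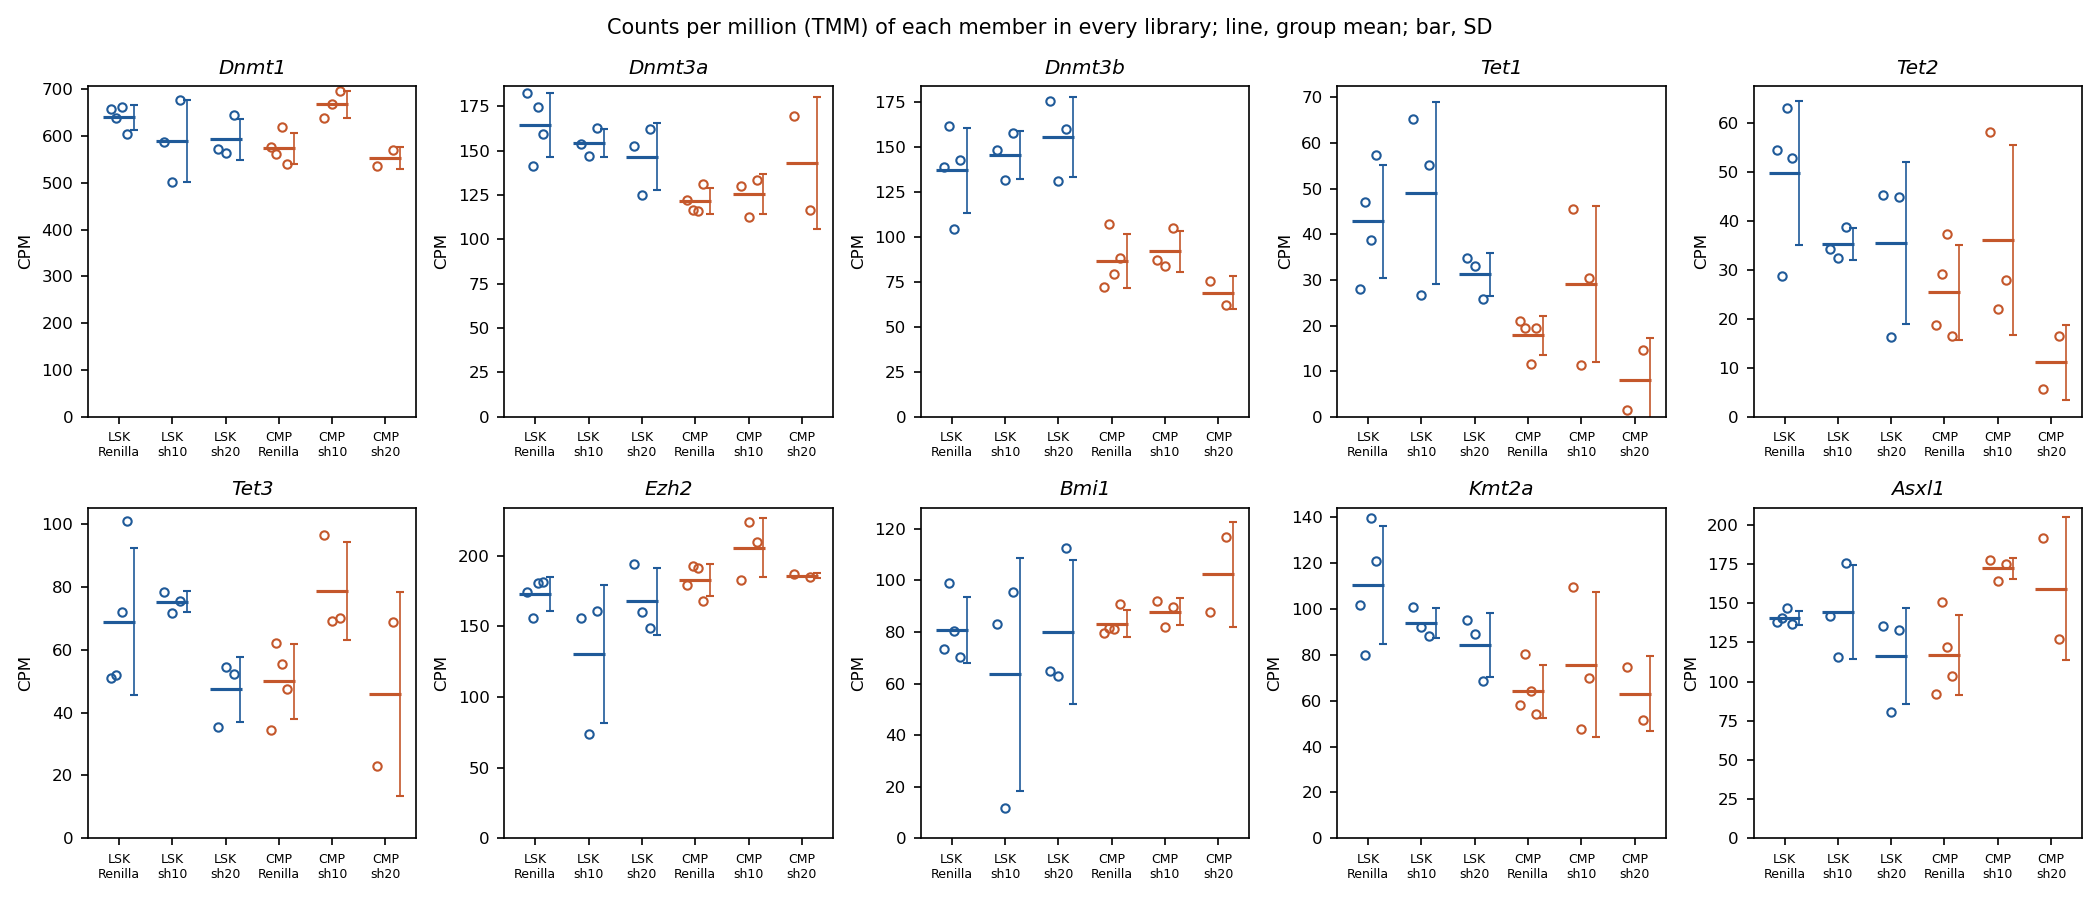
CPM of the 10 genes in every library, by group, each panel on its own axis from 0, with a line at the group mean and a bar for the SD (cut at 0). *Dnmt3b* separates the 9 CMP (62.3 to 107.0 CPM) from the 10 LSK libraries (104.5 to 175.1 CPM) almost fully, and in LSK sh10 1 library lies far below the others for *Bmi1* (11.9 CPM) and *Ezh2* (73.8 CPM).

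The same contrast in cells that carried a *Spehd* shRNA showed how far the difference between cell types recurs in libraries of another shRNA. *Dnmt3b* was the one member that passed the test with each of the 3 shRNAs, lower in CMPs each time. With *Renilla*, sh10 and sh20 taken alone, 19.8, 16.1 and 14.6% of all genes passed. The share that passed with all 3 is not given here. With sh10 it fell by 0.66 (SE 0.17, adjusted p = 0.0134), from 147.9, 131.2 and 157.3 CPM in LSK libraries A to C to 87.3, 83.6 and 104.6 CPM in CMP libraries. With sh20 it fell by 1.18 (SE 0.20, adjusted p = 0.0008), from 175.1, 131.2 and 160.0 CPM to 75.2 and 62.3 CPM in CMP libraries B and C. The groups did not overlap with either shRNA, while over all shRNAs together CMP *Renilla* B (107.0 CPM) and CMP sh10 C (104.6 CPM) lay just above LSK *Renilla* C (104.5 CPM).

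With sh10, 2 members passed the test against 16.1% of 15066 genes. Besides *Dnmt3b*, *Ezh2* was higher in CMPs by 0.66 (SE 0.20, adjusted p = 0.0308). It had 156.0, 73.8 and 161.1 CPM in LSK libraries A to C and 183.2, 224.2 and 209.9 CPM in CMP libraries. Much of that difference lay in LSK library B, which stands apart: without it *Ezh2* was higher by 0.40 (adjusted p = 0.0224), and without CMP sh10 library B or C it no longer passed (adjusted p = 0.0957 and 0.0556). Without CMP sh10 B *Dnmt3b* did not pass either (-0.60, adjusted p = 0.0621). *Bmi1* fell in the same LSK library, at 83.2, 11.9 and 95.6 CPM in A to C, and its log2 fold change of 0.47 (adjusted p = 0.519) became 0.00 without it. *Dnmt3a* had a log2 fold change of -0.30 (95% interval -0.59 to -0.01, adjusted p = 0.155) and *Kmt2a* of -0.31 (95% interval -0.86 to 0.24, adjusted p = 0.467), neither of which passed.

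With sh20, 2 members passed against 14.6% of genes, *Dnmt3b* and *Tet2*. *Tet2*, the dioxygenase mutated in clonal hematopoiesis, was lower in CMPs by a log2 fold change of -1.68 (SE 0.55), with an adjusted p of 0.04996 that just met the limit of 0.05. It had 45.4, 16.3 and 44.8 CPM in LSK libraries A to C and 5.76 and 16.5 CPM in CMP libraries B and C, and CMP C lay inside the LSK range. *Tet1* had 34.7, 33.1 and 25.9 CPM in LSK and 1.53 and 14.6 CPM in CMP, where library B held only 9 counts of it, and its log2 fold change of -1.96 had an adjusted p of 0.0589, while DESeq2 (adjusted p = 0.0143) and edgeR with no filter on low counts (adjusted p = 0.000161) called it. Both results rest on CMP sh20 B: without it *Tet2* had a log2 fold change of -1.10 (adjusted p = 0.318) and *Tet1* of -1.09 (adjusted p = 0.312), and without CMP sh20 C they had -2.62 (adjusted p = 0.0202) and -4.33 (adjusted p = 0.0022), where the lone CMP library B was assumed to vary like the other groups. Over all libraries left out in turn, the adjusted p of *Tet2* ranged from 0.020 to 0.318, and it passed when any of 5 of the 19 libraries was left out. *Dnmt3a* (-0.04, 95% interval -0.36 to 0.29; 169.4 and 116.6 CPM in CMP B and C) and *Kmt2a* (-0.42, 95% interval -1.04 to 0.20; 74.6 and 51.5 CPM) did not pass with sh20.

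**Figure D3:**
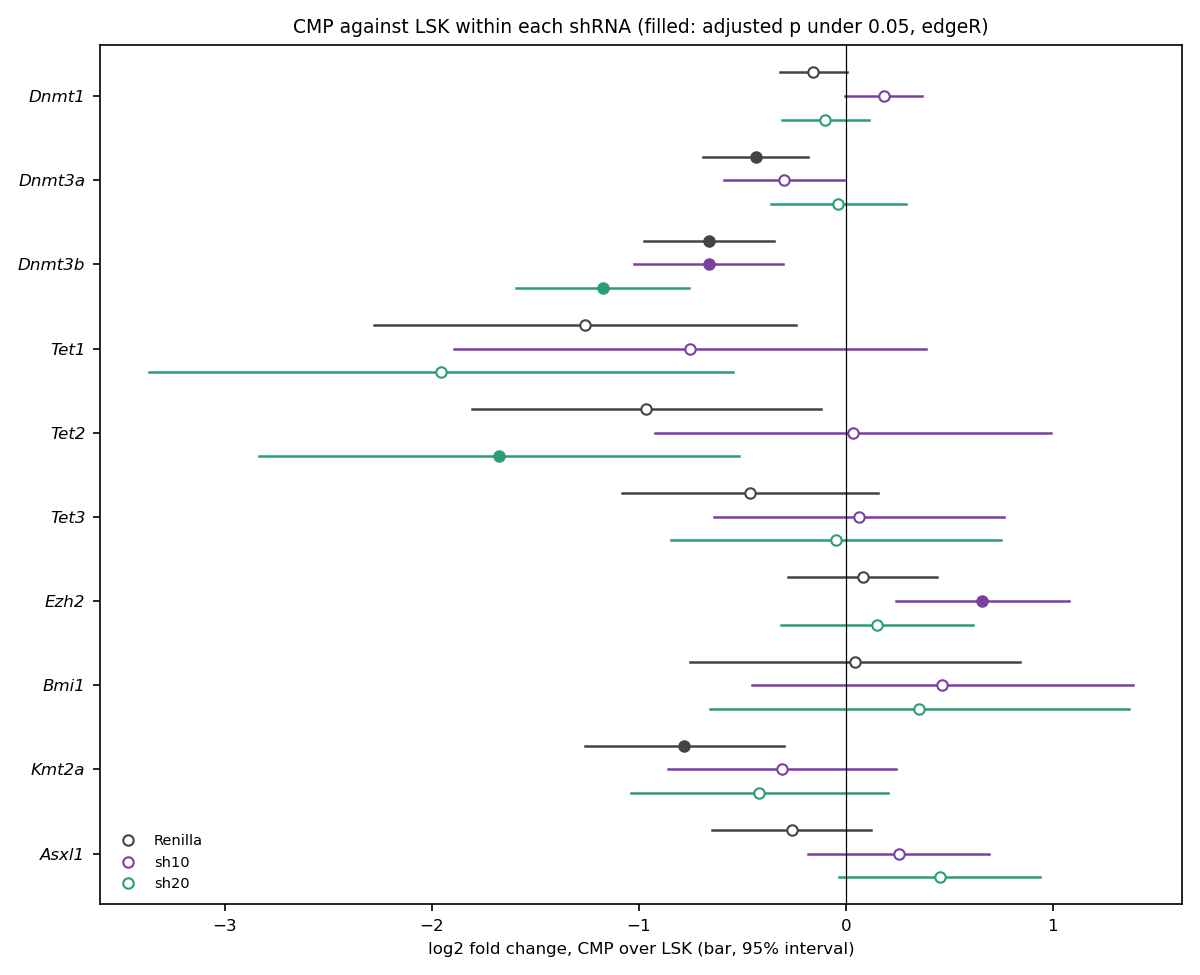
Log2 fold change of CMP over LSK for each gene with *Renilla*, sh10 and sh20, with bars for 95% intervals and filled points where the adjusted p of edgeR was under 0.05. *Dnmt3b* is filled for all 3 shRNAs (-0.66, -0.66 and -1.18), while *Tet1* has the widest bar with each shRNA.

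Other genes of the same pathways were read from lists of their complexes. Among 18 further PRC1 genes, all tested, 4 were lower and none higher in CMP *Renilla* libraries, with a median log2 fold change of -0.13 over the list. *Cbx6*, a chromobox subunit, fell by 0.82 (SE 0.13, adjusted p = 0.0003) and *Pcgf5*, a relative of *Bmi1*, by 0.73 (SE 0.15, adjusted p = 0.0025). *Cbx6* was lower in CMPs with sh10 (-0.59, adjusted p = 0.0092) and sh20 (-1.14, adjusted p = 0.0002) too. None of the 10 further PRC2 genes passed edgeR's test (2 at an unadjusted p under 0.05, against 32.9% of genes), and DESeq2 called 1 of them, with 22.3% of its genes called. Of 15 COMPASS genes, which code for the H3 lysine 4 methylation complexes, 1 was higher and 2 lower. *Dpy30*, a core subunit, was higher by 0.41 (SE 0.10, adjusted p = 0.0090), and *Kmt2c*, a relative of *Kmt2a*, fell by 0.67 (SE 0.20, adjusted p = 0.0274). Of 7 DOT1L genes only *Aff4*, an elongation factor subunit, passed (-0.91, SE 0.26, adjusted p = 0.0204).

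Among 12 tested genes that maintain or read DNA methylation, *Mbd2*, a methyl-CpG binding protein, was higher in CMPs by 0.61 (SE 0.08, adjusted p = 0.0001), and *Cxxc5*, a CXXC zinc finger protein, fell by 0.64 (SE 0.12, adjusted p = 0.0012). Both changed the same way with sh10 (0.74 and -0.87) and sh20 (0.51 and -0.48), with adjusted p-values from 7.9e-05 to 0.0414. Of 9 tested genes of the BAP1 complex none passed edgeR's test (1 at an unadjusted p under 0.05), and DESeq2 called 1. Of 22 other genes mutated in clonal hematopoiesis 2 were higher, *Trp53* by 0.29 (SE 0.07, adjusted p = 0.0099) and *Npm1* by 0.32 (SE 0.10, adjusted p = 0.0280). DNMT1 works at replication, so 12 S phase genes were read beside it: *Rrm2* (0.33, adjusted p = 0.0026) and *Mcm2* (0.23, adjusted p = 0.0031) were higher in CMPs, and the mean of the list was 7.96 to 8.10 log2 CPM in LSK and 8.11 to 8.19 in CMP *Renilla* libraries. The counts called by edgeR in these lists stand against 19.8% of all genes, those at an unadjusted p under 0.05 against 32.9%, and those of DESeq2 against 22.3%.

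The genes whose levels ran most nearly in parallel with the 3 called members over the 19 libraries were sought by Pearson's r of log2 CPM among 10474 genes that averaged 50 counts or more. The r values are descriptions, since all genes share the libraries and the 2 cell types. For *Dnmt3b* they were *Capn2* (r = 0.948), a calpain protease gene, and *Gm37885* (r = 0.936). For *Dnmt3a* they were *Gpr171* (0.860) and *Zbtb20* (0.853), and for *Kmt2a* *Camk2g* (0.841) and *Chd3* (0.840), a chromatin remodeler. Leaving out LSK sh10 B and CMP sh20 B moved none of these below 0.838. Among the members the highest r joined *Ezh2* and *Bmi1* (0.803), but without those 2 libraries it was -0.225. *Tet1* and *Tet2* had an r of 0.747 with all and 0.492 without the 2 libraries, and *Dnmt3a* and *Kmt2a* 0.657 and 0.702.

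The members differed in how much they varied between replicates. The SD of log2 CPM within groups was 0.111 for *Dnmt1*, 0.168 for *Dnmt3a* and 0.217 for *Dnmt3b*, close to the medians of genes with a similar count (0.136, 0.190 and 0.205). *Tet1* (0.803, against 0.383 for genes of a similar count), *Tet2* (0.629 against 0.370) and *Tet3* (0.453 against 0.269), each lowest in CMP sh20 B, varied more. So did *Kmt2a* (0.344 against 0.239) and *Asxl1* (0.279 against 0.190). *Bmi1* (0.691 against 0.240) and *Ezh2* (0.275 against 0.171) did too, and LSK sh10 B was the lowest library of both. *Tet1* and *Tet2* averaged 150.6 and 161.8 counts a library, against 2933 for *Dnmt1*.

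Knockdown of *Spehd* was compared with *Renilla* within each cell type, first with both shRNAs as a single group and then per shRNA. No member passed edgeR's test in any of these comparisons. With both shRNAs together in CMPs, the member with the lowest p was *Asxl1*, the BAP1 partner, with a log2 fold change of 0.52 (SE 0.15, unadjusted p = 0.0070, adjusted p = 0.128). It had 91.9, 150.8, 122.0 and 103.6 CPM in *Renilla* libraries A to D, 177.3, 164.4 and 175.0 CPM in sh10 libraries and 191.5 and 127.0 CPM in sh20 libraries B and C. All 3 sh10 libraries lay above every *Renilla* library, and of the sh20 libraries only B did. With the shRNAs together 0 of 10 members passed, against 0.116% of 12912 genes. *Asxl1* was the 1 member with an unadjusted p under 0.05 (16.6% of genes), and DESeq2 called it as well (adjusted p = 0.0241, with 9.39% of its genes called). Library size separates these groups as well. In a fit of all 19 libraries the difference was 0.50 (SE 0.17, adjusted p = 0.144), and in that fit with log2 library size as a covariate it was 0.14 (SE 0.27, adjusted p = 0.990). In CMPs the shRNAs and library size move together, so the covariate cannot tell them apart.

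With sh10 in CMPs 0 members passed, against 1.97% of 13824 genes. *Dnmt1*, the maintenance methyltransferase, had 638.2, 668.5 and 697.0 CPM with sh10 against 539.7 to 619.0 CPM with *Renilla*. The groups did not overlap, with a log2 fold change of 0.21 (SE 0.06, unadjusted p = 0.0037, adjusted p = 0.0762). *Asxl1* had a log2 fold change of 0.55 (SE 0.18, unadjusted p = 0.0107, adjusted p = 0.117). These were the 2 members with an unadjusted p under 0.05 (21.2% of genes), and DESeq2 called both, with 9.26% of its genes called. Both also passed edgeR's test when CMP sh20 B or C, which are not in this contrast but in its fit, was left out, with adjusted p-values of 0.0418 to 0.0496, and then 6.74% and 6.99% of genes were called. The summed level of 8 T and NK cell markers was 175 to 293 CPM in CMP *Renilla* and 20.5 to 40.5 CPM in CMP sh10 libraries, none of them at 0, and that of 11 LSK and stem cell genes was 1910 to 2000 and 1610 to 1870 CPM. Their part in these values was not tested.

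With sh20 in CMPs 0 members passed, against 6.17% of genes. *Asxl1* (0.46, SE 0.20, unadjusted p = 0.0428, adjusted p = 0.187) and *Bmi1*, the PRC1 subunit (0.31, SE 0.13, unadjusted p = 0.0413, adjusted p = 0.183; 87.9 and 116.8 CPM in sh20 B and C against 79.8 to 90.8 CPM), had an unadjusted p under 0.05 (24.6% of genes), and DESeq2 called 0 members with 11.0% of its genes called. The TET genes were lower in the sh20 libraries on average but spread widely: *Tet2* had 5.76 and 16.5 CPM in sh20 B and C against 16.4 to 37.4 CPM with *Renilla* (log2 fold change -1.18, 95% interval -2.42 to 0.06). *Tet3* had 22.9 and 68.8 CPM, below and above all 4 *Renilla* libraries (34.5 to 62.1 CPM). The summed level of 7 B cell markers was 71.6 CPM or more in both CMP sh20 libraries and 29.0 to 66.2 CPM in the CMP *Renilla* libraries, with *Pax5* and *Ms4a1* at 0 in the former. That of 7 red cell genes was 207 to 229 CPM with sh20 and 124 to 146 CPM with *Renilla*, and that of 11 LSK and stem cell genes 1440 to 1700 and 1910 to 2000 CPM. Their part was not tested. The count of members called depended on the 2 sh20 libraries. Without CMP sh20 C, library B alone stood for sh20, and 5 members passed (*Dnmt3a* and *Asxl1* higher, *Tet1*, *Tet2* and *Tet3* lower), against 21.9% of 14594 genes, with the lone library assumed to vary like the other groups.

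The 2 shRNAs were also set against each other in CMPs, since both target the same lncRNA. Of the members 0 passed, against 6.41% of genes, and 3 had an unadjusted p under 0.05 (26.5% of genes). These were *Dnmt1* (-0.25, SE 0.07, unadjusted p = 0.0041, adjusted p = 0.0551), *Tet2* (-1.68, SE 0.58, unadjusted p = 0.0165, adjusted p = 0.105) and *Tet1* (-1.84, SE 0.80, unadjusted p = 0.0460, adjusted p = 0.180), each lower with sh20. *Dnmt1* had 536.5 and 570.4 CPM in sh20 B and C, below all 3 sh10 libraries. DESeq2 called *Dnmt1* (adjusted p = 0.0230) and *Tet2* (adjusted p = 0.0261), with 13.2% of its genes called. Without CMP sh20 C 5 members passed, against 23.9% of genes. Marker sums differed as well, with 157 to 225 CPM in sh20 and 20.5 to 40.5 CPM in sh10 libraries for T and NK cell genes, 207 to 229 and 72.9 to 131 CPM for red cell genes, 133 to 295 and 53.3 to 71.5 CPM for macrophage and dendritic genes, and 20.4 to 31.2 and at most 11.0 CPM for mature neutrophil genes (*Ly6g* at 0 in both), while the B cell sum was at least 71.6 and at most 38.3 CPM. Their part was not tested. *Tet2* had 58.3, 22.1 and 27.99 CPM in sh10 A to C and *Tet1* 45.4, 11.5 and 30.5 CPM, so that sh10 A was the highest CMP library for both.

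In LSK cells no member was near a call. With the shRNAs together 0 of 10 passed, as did 0.0% of 13441 genes, 0 had an unadjusted p under 0.05 (3.66% of genes), and DESeq2 called 0 members and 0.0% of its genes. The log2 fold changes of the members ranged from -0.50 (*Tet2*, 95% interval -1.11 to 0.11) to 0.13 (*Dnmt3b*, 95% interval -0.15 to 0.41). With sh10 the counts were 0 members and 0.0% of 13828 genes by edgeR, 0 members and 3.3% of genes at an unadjusted p under 0.05, and 0 members and 0.00986% of genes by DESeq2. The sh20 comparison gave 0 members and 0.0% of genes by edgeR, 1 member and 8.33% of genes at an unadjusted p under 0.05, and 0 members and 1.16% of genes by DESeq2. The 1 member was *Tet3*, with 35.5, 54.4 and 52.4 CPM in sh20 A to C against 50.9, 51.8, 72.0 and 100.8 CPM with *Renilla* (log2 fold change -0.56, unadjusted p = 0.0495, adjusted p = 0.597). *Tet3* was also the 1 member with an unadjusted p under 0.05 between sh20 and sh10 (-0.70, SE 0.27, unadjusted p = 0.0252, adjusted p = 0.450), where sh10 A to C had 78.4, 71.7 and 75.5 CPM and the groups did not overlap. That comparison called 0 members and 0.0% of genes, with 9.17% of genes at an unadjusted p under 0.05 and 0 members and 1.47% of genes by DESeq2. Marker sums differed here too. That of 11 LSK and stem cell genes was 3020 to 3410 CPM with *Renilla*. It was 2420 to 2880 CPM with sh10 and 2800 to 2940 CPM with sh20. The mature neutrophil sum was 47.0 to 325 CPM with sh10 and 4.73 to 6.63 with sh20 (*Ly6g* at 0 in the latter). The B cell sum was 63.1 to 70.7 CPM with *Renilla* and 79.6 to 88.7 with sh20 (*Pax5* and *Ms4a1* at 0 in the latter). The other lists overlapped, and the part of these sums was not tested.

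Whether the response to *Spehd* knockdown differed between CMPs and LSK cells was tested as an interaction over all 19 libraries. None of the 10 passed, against 0.0531% of 15066 genes (1.63% without CMP sh20 C and 0.0% without LSK *Renilla* A). *Asxl1* was the 1 member with an unadjusted p under 0.05 (10.1% of genes), with a difference of 0.62 on the log2 scale between the 2 knockdown effects (SE 0.24, unadjusted p = 0.0196, adjusted p = 0.427), and DESeq2 called 0 members and 0.624% of its genes. For *Dnmt3a*, *Dnmt3b* and *Kmt2a* the difference was 0.27 (95% interval -0.07 to 0.60), -0.26 (-0.67 to 0.16) and 0.42 (-0.21 to 1.05).

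**Figure D4:**
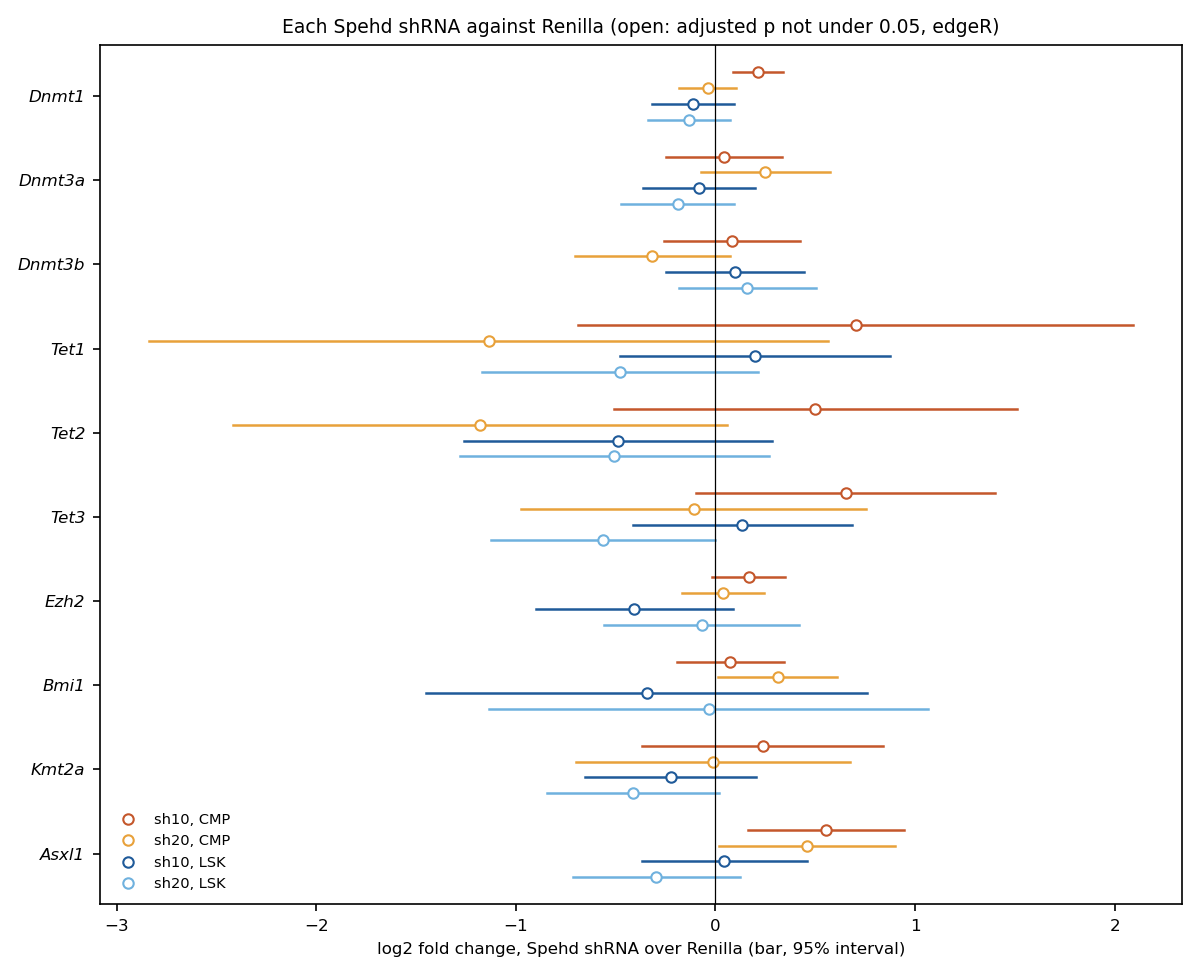
Log2 fold change of each gene with sh10 or sh20 over *Renilla* in CMPs and LSK cells, with bars for 95% intervals. All points are open, since no adjusted p of edgeR was under 0.05, and the bars of *Tet1* in CMPs are the widest.

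Further genes of the same complexes did pass in CMPs, where 1.97% of all genes were called with sh10, 6.17% with sh20 and 6.41% between the shRNAs. Those calls over all genes went from 272 to 5, from 853 to 0 and from 886 to 28 with the replicate letter as a block. A fit of all 19 libraries called 145, 609 and 790 genes, and that fit with library size as a covariate 1, 20 and 583. With a library left out of the fits within CMPs the calls fell to as few as 9, 430 and 84. With sh10, *Suz12*, a core PRC2 subunit, was higher by 0.60 (SE 0.08, adjusted p = 0.0163), and *Bcor*, a corepressor of a variant PRC1, by 0.49 (SE 0.09, adjusted p = 0.0360). With sh20, the histone chaperone subunits of PRC2 *Rbbp4* (-0.32, adjusted p = 0.0150) and *Rbbp7* (-0.34, adjusted p = 0.0152) and the PRC1 chromobox gene *Cbx8* (-1.37, adjusted p = 0.0285) were lower. *Mbd6*, of the BAP1 complex, was lower as well (-1.97, adjusted p = 0.0168). *Uhrf1*, which brings DNMT1 to replicated DNA, was higher by 0.27 (SE 0.06, adjusted p = 0.0425), and *Mbd4*, a glycosylase, by 0.80 (SE 0.20, adjusted p = 0.0472). Of 21 tested clonal hematopoiesis genes 4 were lower with sh20, among them *Srsf2* (-0.45, adjusted p = 0.0093), *Idh2* (-0.31, adjusted p = 0.0309) and *Npm1* (-0.43, adjusted p = 0.0362), and of 12 S phase genes *Mcm6* (-0.32, adjusted p = 0.0097) and *Mcm7* (-0.34, adjusted p = 0.0145) were lower. Between the shRNAs, *Suz12* (-0.75, adjusted p = 0.0083), *Bcor* (-0.77, adjusted p = 0.0117), *Phf6* (-0.44, adjusted p = 0.0337), *Kdm2b* (-0.69, adjusted p = 0.0236), *Mbd6* (-2.12, adjusted p = 0.0166), *Mbd5* (-2.74, adjusted p = 0.0483), *Mcm3* (-0.20, adjusted p = 0.0450), *Mcm4* (-0.25, adjusted p = 0.0453) and *Mcm6* (-0.20, adjusted p = 0.0491) were lower with sh20 than with sh10. In the LSK knockdown comparisons and the interaction no gene of any list passed edgeR's test (at an unadjusted p under 0.05, 0 to 3 a list in LSK cells and 0 to 5 in the interaction, where the 5 were of the 15 COMPASS genes against 10.1% of all genes), and DESeq2 called 1, a DOT1L gene, between the shRNAs in LSK cells, with 1.47% of its genes called.

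Some members share exonic bases with a gene on the other strand, and the sources used here do not say whether the kit kept strand. *Asxl1* overlaps *2500004C02Rik* by 197 exonic bases (29 to 109 counts a library) and *Ezh2* overlaps *Gm26625* by 174 (23 to 75 counts). *Kmt2a* overlaps *AC061963.1* by 378 bases (0 to 20 counts), *Dnmt3a* overlaps *Dnmt3aos* by 133 and *Tet2* overlaps *Gm42567* by 43, the latter 2 with at most 4 counts a library. On GRCm38 the 3 members lower in CMPs span chr12:3806007-3914443 on the plus strand (*Dnmt3a*), chr2:153649450-153687730 on the plus strand (*Dnmt3b*) and chr9:44803355-44881296 on the minus strand (*Kmt2a*).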

How the data were processed

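RNA was sequenced from zsGreen+ LSK cells and CMPs (19 libraries, 6 groups). Per the study's methods, cDNA was made with a SMART-Seq v4 kit, reads were aligned to mm10 with STAR 2.5.2a, duplicates were removed with Picard 1.131, and reads were counted on genes of GENCODE vM11 with HTSeq 0.7.2. Removing duplicates caps the counts of abundant genes. The deposited values used here are the authors' raw read counts per gene and library. The authors' table of normalized counts was not used. The summary entries of HTSeq (72.04 to 77.72% of each file's sum) were left out.

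Genes with at least 10 counts in enough libraries and 15 in total (filterByExpr) were scaled by TMM and tested with edgeR 4.0.16 (R 4.3.3) by the quasi-likelihood F test, p-values were adjusted by Benjamini and Hochberg's method over every gene tested, and the threshold was 0.05. CMP against LSK and the interaction came from a fit of 6 groups, and knockdown from fits within a cell type. CPM use TMM library sizes. CPM per kb divides by the merged exons of a GENCODE GRCm38 annotation, to which 53669 genes matched. Alternatives were DESeq2 1.42.0, other scalings and filters, an offset per library that follows counts per exonic base (density offset), library size as a covariate in the fit of all libraries, the replicate letter as a block, and each library left out. The test was first run on simulated counts with the same spread for all genes and no outlying library, unlike these data. The labels do not say whether replicates are separate animals, so p-values measure the spread between libraries, which may be technical.

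The 10 members and all lists were chosen with earlier results of these data known. Genes outside the members were named by rule: the 2 of each list with the smallest adjusted p among those called in CMP against LSK with *Renilla*, up to 3 per list in a knockdown comparison, and the 2 most like each called member. Marker genes came from a list of defining genes. The sh10 and sh20 values of *Cbx6*, *Mbd2* and *Cxxc5* were added after they were seen.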

Additional observations from a re-analysis of the deposited data

Results flagged for a closer look

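Among 20 groups of 4 libraries tested for a value apart from the rest (10 genes in the LSK and CMP *Renilla* groups), 1 was found. *Bmi1* had 90.8 CPM in CMP *Renilla* library D, against 79.8 to 81.4 CPM in libraries A to C, a gap large for so tight a group. Chance gives about 1 such value in 20 groups. Groups of 3 or fewer libraries were not tested, so the low *Bmi1* and *Ezh2* of LSK sh10 B are not among them.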

How the results depend on the processing

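The call of *Dnmt3b* with *Renilla* and with sh20 held under every alternative run, with log2 fold changes of -0.78 to -0.57 and -1.31 to -1.04 when single libraries were left out. With *Renilla*, the count of members called was 5 with no filter (8.58% of genes) and 1 to 4 with a library left out (14.1 to 26.9% of genes). *Dnmt1* passed with the density offset (-0.32, adjusted p = 0.0309). *Dnmt3a* did not pass with that offset (-0.35, adjusted p = 0.0557) or without CMP *Renilla* B or C or LSK *Renilla* A, and *Kmt2a* not with that offset (-0.61, adjusted p = 0.0797) or without CMP *Renilla* A, C or D or LSK *Renilla* C or D. *Tet1* passed with no filter (adjusted p = 0.000665), with DESeq2 (0.0353) and without CMP sh20 B or C, and *Tet2* with no filter (0.00702). For sh10 the count was 0 to 3 with a library left out (8.59 to 17.3% of genes). For sh20 it was 3 with DESeq2 and with no filter, where *Tet1* passed as well (0.0143 and 0.000161), 1 with at least 10 counts in every library, with the density offset and with library size as a covariate, and 1 to 3 with a library left out (8.91 to 20.6% of genes). Upper quartile scaling factors shift the sh10 contrast by -0.12 (log2). The genes called then went from 1131 higher of 2424 to 764 higher of 2393, and *Dnmt3a* passed (-0.42, adjusted p = 0.0484).

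Among knockdown comparisons in CMPs, DESeq2 called 1 member with the shRNAs together, 2 with sh10 and 2 between shRNAs. With no filter 1 was called with sh10 (2.66% of genes) and 1 between shRNAs (4.95%), where library size as a covariate also gave 1 (3.87%). Leaving out a library gave 0 to 2 with sh10, 0 to 5 with sh20 and 0 to 5 between shRNAs, the highest without CMP sh20 C for the latter 2. The genes called then ran from 9 (without CMP sh10 B or C) to 1020 (without CMP sh20 C) with sh10, 430 (without CMP *Renilla* B or D) to 3191 (without CMP sh20 C) with sh20, 84 (without CMP sh10 B) to 3484 (without CMP sh20 C) between shRNAs, and 0 (without CMP sh10 B or C or *Renilla* A, B or D) to 264 (without CMP sh20 B) with the shRNAs together.

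Directions turned only for values that had not passed. With sh10, CMP against LSK for *Tet2* was -0.08 with upper quartile scaling, 0.0 with no filter, -0.02 with at least 10 counts in every library, -0.03 with the block and -0.50 to 0.29 with a library left out, and for *Tet3* -0.06 with upper quartile scaling and -0.12 to 0.15. With sh20, *Dnmt3a* was 0.01 with the block and -0.32 to 0.21 with a library left out. *Tet3* was 0.0 with the density offset, 0.05 with the covariate and -1.05 to 0.55, and *Bmi1* -0.03 with the covariate. Upon knockdown the covariate, used in a fit of all 19 libraries, gave -0.12 for *Dnmt3b* in LSK, and in CMPs with sh20 -0.02 for *Asxl1* and -0.72 for *Bmi1*, against 0.14, 0.44 and 0.30 in that fit without it. *Dnmt3b* in CMPs ran from -0.16 to 0.05 and *Kmt2a* from -0.07 to 0.26 with a library left out. The cause was not tested. The lowest count of any member in a library was 9, for *Tet1*, which limits its precision there.

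The replicate letters were not taken to pair the libraries, since the labels do not say that they do. Same-letter libraries of a cell type, which carry different shRNAs, correlated at -0.175 to 0.156 in their deviations. Across cell types, within an shRNA, the 9 same-letter pairs correlated at 0.0031 to 0.259 (median 0.0435) and other letters at a median of -0.0319. With the replicate block the counts of members called were again 3, 2 and 2 between cell types and 0 upon knockdown, while the genes called in CMPs went from 15 to 0 with the shRNAs together, from 272 to 5 with sh10, from 853 to 0 with sh20 and from 886 to 28 between shRNAs, and from 8 to 0 for the interaction. Over the other alternatives with all libraries, the genes called ran from 5 to 882 with the shRNAs together, 1 to 1230 with sh10, 20 to 1706 with sh20 and 583 to 1978 between shRNAs in CMPs, from 0 to 9, 0 to 195 and 0 to 256 for sh10, sh20 and between shRNAs in LSK, from 0 to 253 for the interaction, and from 1317 to 3010 for CMP against LSK with sh20.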
